A study of Macaca mulatta with 22 samples.

Results

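The genes described here are 4 members of the CCAAT/enhancer binding protein family, CEBPA, CEBPB, CEBPD and CEBPG, together with RUNX1 and RUNX2 of the runt-related family. They were taken by symbol: every probe set whose single gene symbol in the platform's annotation was one of the 6 names. That gave 20 probe sets of 52766 tested, for 6 genes of 14132 with a probe set of a single symbol. CEBPA had 3 probe sets, CEBPB 2, CEBPD 1, CEBPG 2, RUNX1 7 and RUNX2 5. A gene is given by its brightest probe set (highest mean of the 22 arrays), and the dimmer ones are described beside it.

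C/EBP proteins are leucine zipper transcription factors that bind DNA as pairs, either with themselves or with each other, and RUNX proteins bind DNA through the runt domain with the partner CBFB. In rodent ovaries the luteinizing hormone surge is known to induce CEBPB, RUNX1 and RUNX2 in granulosa cells through cAMP, EGF-like factors and ERK kinases. Loss of CEBPA and CEBPB in mouse granulosa cells impairs ovulation and the formation of the corpus luteum, the progesterone-making gland that a follicle becomes, a change called luteinization.

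RNA of 22 single follicles of female rhesus macaques (Macaca mulatta) was hybridised to arrays, 1 follicle per array. Females were sampled in menstrual cycles under hormonal control: once estradiol in serum had reached 100 to 120 pg/ml, recombinant human FSH and recombinant human LH (30 IU of each) were injected together with 0.1 ml/kg of Acyline, an antagonist of GnRH, so that the pituitary's own surge was replaced. The 0 h group (6 follicles) received these agents and no ovulatory dose. The other groups also received 1000 IU of recombinant human chorionic gonadotropin (hCG), which acts on the LH receptor, and were collected 12 h later (4 follicles), 24 h later (4), or 36 h later before rupture (4) or after rupture (4). For a given array the sources used here do not say which female the follicle came from, and the p-values therefore reflect the scatter of these 22 follicles. The whole follicle was extracted, so that more cells of a type and more RNA per cell cannot be told apart. The labels name no genotype or age.

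All values are log2 of the deposited intensity, on which a difference of 1 is a 2-fold change. Levels of different probe sets are not on a common scale, and the levels of the members were not set against each other. They were used across probe sets to pick a gene's brightest, to place probe sets beside the median of all, and in marker sums. A marker sum adds intensities before log2, so the brightest genes of a list weigh most. A change is given with its standard error (SE) from limma over all 22 arrays, and was called at a Benjamini-Hochberg adjusted p under 0.05 over the 52766 probe sets. Group values are mean ± SD. Ruptured follicles keep their titles' numbers, 5 to 8.

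Median intensities were 26.2 to 26.7 per array, and the arrays correlated pairwise at 0.870 to 0.918. Most measured granulosa and theca genes lay above the median level of all probe sets. Most genes of several other cell lists did too, so this does not identify the tissue. Of 9 granulosa genes 7 were measured, 1 of them below the median level of all probe sets (log2 4.63), and of 6 theca genes 4 were measured, again 1 below that median. The lists of macrophage and monocyte genes (9 of 11 measured) and of genes shared by all leukocytes (4 of 5 measured) had no measured gene below it. An index of RNA integrity, the difference between 3′ and 5′ probe sets of control transcripts, was 0.506 in 12 h replicate 3 and 0.243 to 0.393 in the other arrays.

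Between 0 h and 12 h, 5 of the 6 genes rose, and 12 of the 20 probe sets were called higher with none called lower. Among all named genes 6.50% were called higher in that comparison, and among all probe sets 4.28%. The median change of the 6 genes was 1.68, beside -0.00 for all named genes. Between 12 h and 24 h, 3 of the 6 genes fell, against 5.02% of named genes called lower, and 5 of the 20 probe sets fell, against 3.20% of all probe sets. From 24 h to unruptured 36 h follicles no member was called, where limma called 0.00708% of named genes and 0.00379% of probe sets in either direction. At an unadjusted p under 0.05, 0 of the 20 passed too. In ruptured against unruptured 36 h follicles 3 genes and 9 probe sets were higher, with backgrounds of 6.47% and 4.83%. No member was called lower there. The count of 12 probe sets at 12 h fell to 7 without 12 h replicate 3, and the 5 that fell to 24 h became 2 without 12 h replicate 4 and 3 without 24 h replicate 1 or 3. The rise to 12 h and the fall after it share the 12 h arrays, so they are not independent of each other.

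**Figure D1:**
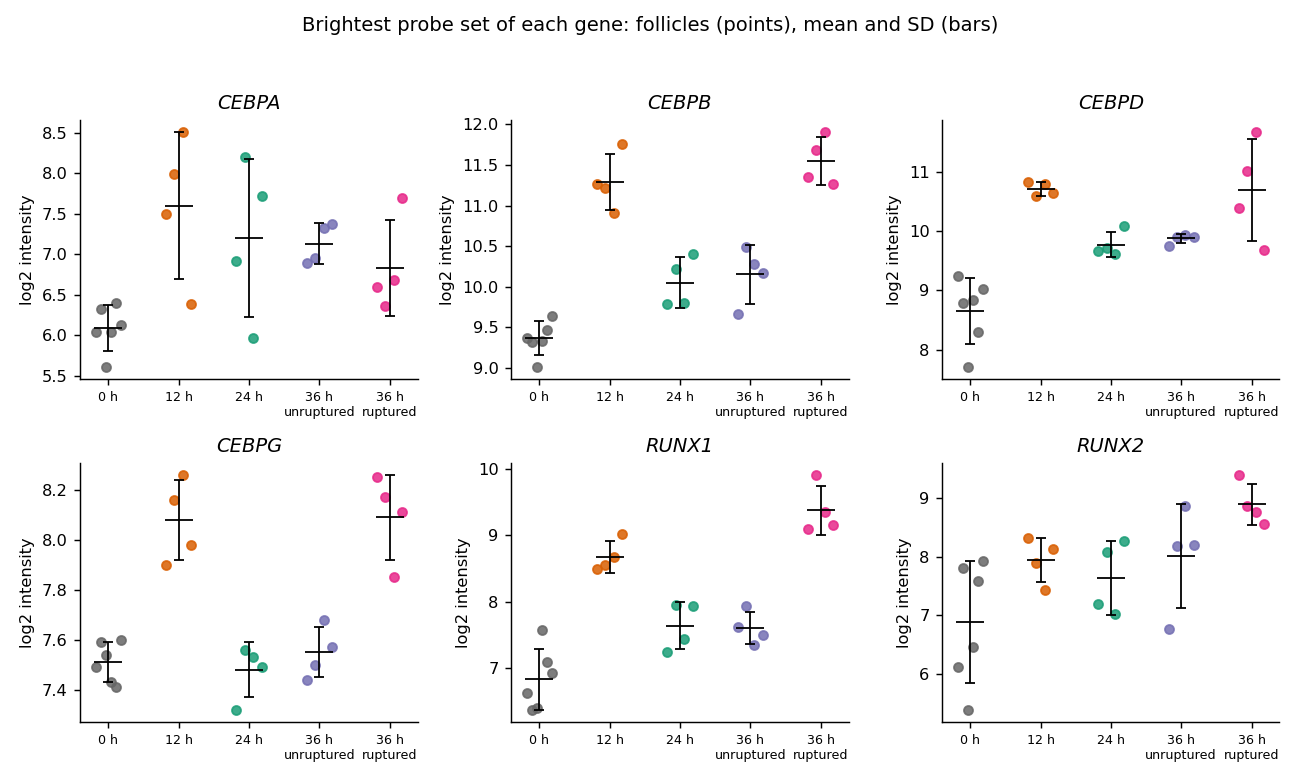
Log2 intensity of the brightest probe set of each gene (y axis, scaled separately in each panel) in the 5 groups (x axis), with 1 point per follicle and bars for the group mean and SD. CEBPB, CEBPG and RUNX1 stand high at 12 h and in ruptured follicles, CEBPD varies most among ruptured follicles, and CEBPA spreads widely at 12 h and 24 h.

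CEBPB is the family member most often tied to the surge in granulosa cells. Its brightest probe set (MmugDNA.9809.1.S1_s_at) read 9.01 to 9.64 with a median of 9.35 in the 6 follicles at 0 h. Replicates 1 to 4 of the 12 h group read 11.27, 11.22, 10.91 and 11.76. Those of the 24 h group, which are other follicles, read 9.78, 10.22, 9.80 and 10.40. Unruptured 36 h follicles gave 9.66, 10.49, 10.28 and 10.17, and ruptured follicles 11.35, 11.68, 11.91 and 11.26. Every 12 h and every ruptured follicle stood above every follicle of the other 3 groups, while the 12 h and ruptured groups overlapped each other.

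From 0 h to 12 h CEBPB rose 3.82-fold (1.93 ± 0.20, adjusted p = 1.11e-05). It then fell by 1.24 ± 0.22 from 12 h to 24 h (adjusted p = 0.00201). It was 1.40 ± 0.22 higher in ruptured than in unruptured follicles, a 2.65-fold difference (adjusted p = 0.000457). After rupture the level was 11.55 ± 0.30, beside 11.29 ± 0.35 at 12 h, a difference of 0.26 ± 0.22 that did not pass (adjusted p = 0.643). In unruptured follicles CEBPB was 0.79 ± 0.20 above 0 h (adjusted p = 0.0257). That call is lost without 0 h replicate 3 or without unruptured replicate 2, 3 or 4, with an adjusted p of up to 0.0922. At 24 h the difference from 0 h was 0.70 ± 0.20 (adjusted p = 0.0598). The second CEBPB probe set, whose identifier shares the number of the first, so that both may share probes, followed it at r = 0.99 over the 22 arrays. It passed in the same 3 steps, with changes of 1.73 ± 0.23, -1.07 ± 0.25 and 1.47 ± 0.25. In unruptured follicles against 0 h it was not called by limma (0.72 ± 0.23, adjusted p = 0.0855), and the groups overlapped.

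CEBPD is a family member induced by cytokines through STAT3 in many tissues. Its single probe set (MmugDNA.29934.1.S1_at) ran from 7.71 to 9.24 at 0 h, with a median of 8.80. The 12 h follicles lay close together at 10.84, 10.59, 10.79 and 10.64, and the 24 h follicles at 9.66, 9.72, 9.61 and 10.08. Unruptured follicles gave 9.75, 9.91, 9.94 and 9.91, while ruptured follicles spread over 10.39, 11.01, 11.68 and 9.68. Every follicle taken after hCG stood above every 0 h follicle, and the last ruptured follicle lay below all 4 unruptured ones.

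CEBPD rose by 2.07 ± 0.31 to 12 h, a 4.19-fold change (adjusted p = 0.000336). The 12 h and 24 h groups did not overlap, but the difference of -0.95 ± 0.33 did not pass (adjusted p = 0.104). The ruptured group was 0.81 ± 0.33 above the unruptured one, with an adjusted p of 0.146. Without ruptured replicate 8 that difference was 1.15 and passed (adjusted p = 0.0244). Against 0 h, CEBPD was higher in unruptured follicles by 1.23 ± 0.31 (adjusted p = 0.0252). The adjusted p of that comparison rises to between 0.051 and 0.0699 without 0 h replicate 3 or 5 or without any 1 of the unruptured follicles. In ruptured follicles the difference from 0 h was 2.04 ± 0.31 (adjusted p = 0.00014). Over the 22 arrays CEBPD moved with the summed markers of smooth muscle and pericytes (r = 0.74, or 0.38 after group means were subtracted), neutrophils (0.68 and 0.46, with 4 of the 6 genes below the median level of all probe sets), endothelium (0.55 and 0.50) and red cells and platelets (0.48 and 0.50). With the sum of genes shared by leukocytes r was 0.55 (-0.02 after subtraction), and with that of macrophages and monocytes 0.49 (-0.04). With the theca sum it was -0.59 (0.22 after subtraction), and with the granulosa sum -0.45 (0.09). For the other 5 members r was 0.43 to 0.58 with the smooth muscle and pericyte sum and 0.29 to 0.59 with the neutrophil sum. It was 0.29 to 0.51 for endothelium and 0.03 to 0.27 for red cells and platelets. After subtraction CEBPG had the same 0.38 with the smooth muscle and pericyte sum. The part of these cells in the CEBPD result was not tested.

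CEBPG, which lacks a strong activation domain and acts mainly as a partner of other leucine zipper proteins, changed less in size and with less spread. Its brightest probe set (MmugDNA.22783.1.S1_at) read 7.41 to 7.60 at 0 h (median 7.51). It read 7.90, 8.16, 8.26 and 7.98 at 12 h, and 7.32, 7.56, 7.53 and 7.49 at 24 h. The unruptured follicles gave 7.44, 7.50, 7.68 and 7.57 and the ruptured ones 8.25, 8.17, 7.85 and 8.11. The 12 h and ruptured groups overlapped each other and lay above the other 3 groups, which shared 1 narrow band.

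From 0 h to 12 h CEBPG rose by 0.57 ± 0.10, a 1.48-fold change (adjusted p = 0.00183). It fell by 0.60 ± 0.11 to 24 h (adjusted p = 0.00348), to a level that differed from that at 0 h by -0.03 ± 0.10 (adjusted p = 0.924). In ruptured follicles it was 0.55 ± 0.11 higher than in unruptured ones (adjusted p = 0.0046). The dimmer CEBPG probe set passed in the same directions in these 3 steps, by 0.85 ± 0.19, -0.75 ± 0.20 and 0.89 ± 0.20. It followed the brighter one at r = 0.83, but at 0.23 once group means were subtracted, so the agreement lies between groups more than between follicles of a group.

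CEBPA, a factor of cell differentiation in fat, liver and the myeloid lineage, had the widest spread of the C/EBP genes at 12 h and 24 h. Its brightest probe set (MmunewRS.760.1.S1_at) ran from 5.61 to 6.40 at 0 h, with a median of 6.09. The 12 h follicles gave 7.49, 7.99, 8.51 and 6.39, and the 24 h follicles 6.91, 8.20, 5.97 and 7.72. Unruptured follicles gave 6.89, 6.95, 7.32 and 7.37, and ruptured ones 6.59, 6.36, 6.68 and 7.69. At 12 h 3 of the 4 follicles stood above every 0 h follicle and the last lay at the top of the 0 h range, while at 24 h replicate 3 lay inside that range.

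CEBPA rose by 1.50 ± 0.40 to 12 h, a 2.84-fold change (adjusted p = 0.0219). The call was lost without 12 h replicate 2 (adjusted p = 0.072) or without 12 h replicate 3 (1.20 ± 0.41, adjusted p = 0.0869), the array with the highest 3′ index. With that index as a covariate the rise was 1.29 ± 0.43 (adjusted p = 0.0904). Both dimmer CEBPA probe sets were called higher at 12 h, by 1.46 ± 0.36 and 1.16 ± 0.30. No later step passed. Ruptured follicles differed from unruptured ones by -0.30 ± 0.44 (adjusted p = 0.76), and were 0.74 ± 0.40 above 0 h (adjusted p = 0.254). At 24 h the difference from 0 h of 1.11 ± 0.40 did not pass for the brightest probe set (adjusted p = 0.153), while the dimmest one was called, the 1 member probe set called at 24 h against 0 h (backgrounds 1.66% of probe sets and 2.87% of named genes higher).

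The CEBPA level moved with the sums of macrophage and monocyte, shared leukocyte and lymphocyte markers, and less with that of neutrophils. The summed intensity of 9 macrophage and monocyte genes, on the log2 scale, was 10.28 to 11.17 at 0 h, 10.91 to 12.41 at 12 h, 11.14 to 12.24 at 24 h, 11.20 to 11.68 before rupture and 11.01 to 11.80 after it. At 12 h the sums of follicles 1 to 4 were 11.74, 12.06, 12.41 and 10.91, in the same order as their CEBPA levels. At 24 h the order differed, since replicate 2, with the highest CEBPA, had the lowest sum, 11.14. Over the 22 arrays CEBPA followed the sum at r = 0.78, and at 0.58 after group means were subtracted. The sum of 4 genes shared by leukocytes gave 0.79 and 0.57. For the other 5 members r with the macrophage and monocyte sum was 0.29 to 0.49. After subtraction of group means it was -0.36 for CEBPB, -0.27 for RUNX1, -0.04 for CEBPD, 0.02 for RUNX2 and 0.19 for CEBPG. CEBPA also moved with the lymphocyte sum (0.65, and 0.68 after subtraction), 4 of whose 6 genes lie below the median level of all probe sets. With the neutrophil sum, which also has 4 of 6 genes below that median, r was 0.33 (-0.01 after subtraction). It moved against the granulosa sum (-0.64 and -0.41) and the theca sum (-0.52 and -0.57). These arrays share their groups and scaling, and the part of leukocytes or other cells in the CEBPA result was not tested.

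**Figure D2:**
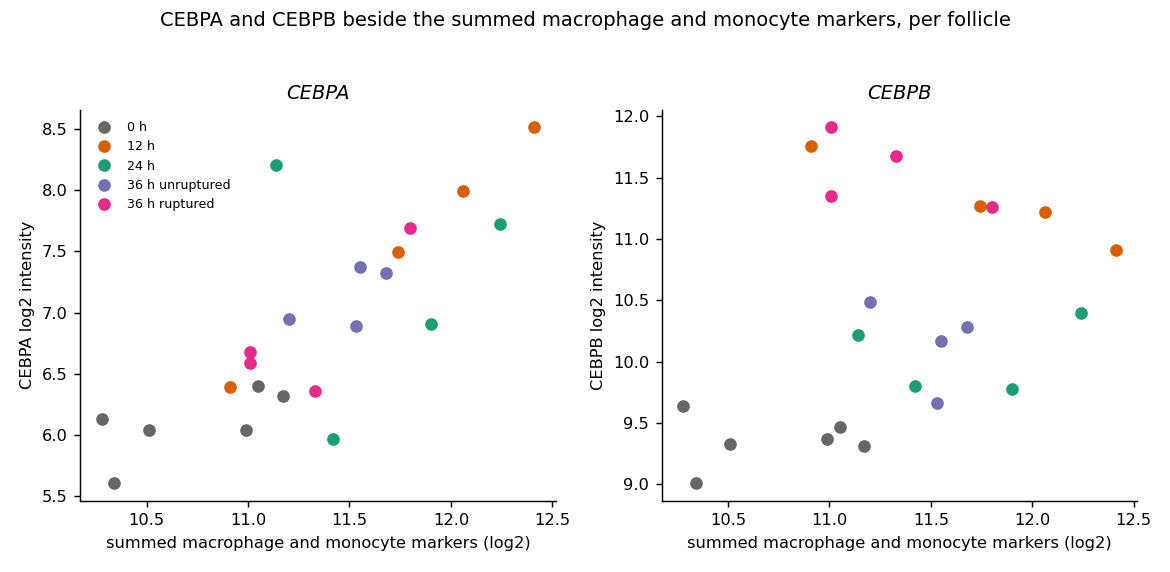
Log2 intensity of CEBPA (left) and CEBPB (right) on the y axes against the log2 of the summed intensity of 9 macrophage and monocyte genes on the x axis, with 1 point per follicle coloured by group. CEBPA follows the sum across follicles (r = 0.78), with 24 h replicate 2 (8.20 at a sum of 11.14) above the follicles of similar sum, and CEBPB does so less (r = 0.35), its ruptured follicles standing high over a sum of 11.01 to 11.80.

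Of the 9 macrophage and monocyte genes 5 were called higher at 12 h than at 0 h (median 1.23), and so were 4 of 4 genes shared by leukocytes (median 1.55), where 6.50% of all named genes were called higher and 7.80% lower. None of the 6 neutrophil, 6 lymphocyte, 9 endothelial or 5 oocyte genes measured was called there. Of the smooth muscle and pericyte genes 1 of 3 was higher, and of the red cell and platelet genes 1 of 7. Of 7 granulosa genes 3 were called lower and of 4 theca genes 2. The granulosa sum went from 13.60 to 14.43 at 0 h to 12.91 to 13.95 at 12 h, and the theca sum from 11.71 to 12.65 to 9.38 to 11.61. In ruptured against unruptured follicles 1 granulosa and 1 oocyte gene were higher, 1 endothelial gene was lower, and none of the other lists' genes was called (backgrounds 6.47% higher and 7.67% lower). Counts of 1 in these lists of 3 to 9 genes are too small to read against the backgrounds.

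RUNX1, known for its part in blood formation and induced in granulosa cells before ovulation, changed in the same 3 steps as CEBPB. Its brightest probe set (MmuSTS.2402.1.S1_at) ran from 6.37 to 7.57 at 0 h (median 6.78). Replicates 1 to 4 of the 12 h group read 8.49, 8.55, 8.67 and 9.02, and those of the 24 h group 7.25, 7.95, 7.44 and 7.93. Unruptured follicles gave 7.62, 7.93, 7.35 and 7.50, and ruptured follicles 9.10, 9.91, 9.35 and 9.16. Each ruptured follicle stood above each 12 h follicle, and each 12 h follicle above those of the 3 lower groups.

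The RUNX1 rise to 12 h was 1.85 ± 0.23, or 3.61-fold (adjusted p = 7.55e-05). The fall to 24 h was -1.04 ± 0.25 (adjusted p = 0.0173). It was lost without 12 h replicate 4, 24 h replicate 1 or 24 h replicate 3 (highest adjusted p = 0.0662), with the 3′ index as a covariate (adjusted p = 0.0774) and with the mean of the 7 probe sets (-0.97 ± 0.38, adjusted p = 0.151). Ruptured follicles were 1.78 ± 0.25 above unruptured ones, a 3.44-fold difference (adjusted p = 0.000245), and 2.55 ± 0.23 above 0 h (adjusted p = 8.62e-07). Although the groups did not overlap, the ruptured level of 9.38 ± 0.37 was not called against the 12 h level of 8.68 ± 0.24, with a difference of 0.70 ± 0.25 (adjusted p = 0.186).

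The other 6 RUNX1 probe sets were dimmer, 4 of them below the median level of all probe sets. Of these 6, 3 were called higher at 12 h, by 0.79 ± 0.24, 2.33 ± 0.52 and 2.77 ± 0.81. In ruptured against unruptured follicles 4 were called higher, by 1.29 ± 0.26 to 3.46 ± 0.89. None was called in the fall from 12 h to 24 h. They followed the brightest RUNX1 probe set at r = 0.37 to 0.89 over the 22 arrays.

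RUNX2, the factor that directs bone formation and is also found in luteinizing granulosa cells, varied widely between follicles, most of all at 0 h. Its brightest probe set (MmugDNA.9398.1.S1_at) ran from 5.38 to 7.92 at 0 h, with a median of 7.03. The 12 h follicles gave 8.33, 7.89, 7.44 and 8.13 and the 24 h follicles 7.19, 8.09, 7.03 and 8.27. Unruptured follicles gave 6.76, 8.19, 8.87 and 8.21, and ruptured ones 9.40, 8.87, 8.77 and 8.56. The first 4 groups overlapped, and the ruptured group lay above all of them but for unruptured replicate 3 at 8.87.

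RUNX2 was 1.07 ± 0.47 higher at 12 h than at 0 h, which did not pass (adjusted p = 0.187). None of the other steps passed. In ruptured follicles it was 2.02 ± 0.47 above 0 h (adjusted p = 0.00595), the 1 RUNX2 comparison that was called. The dimmer probe sets gave no call: the mean of all 5 was 0.91 ± 0.44 above 0 h in ruptured follicles (adjusted p = 0.187) and -0.13 ± 0.44 at 12 h, the opposite sign to the brightest. The dimmest (MmugDNA.13497.1.S1_at) ran from -0.40 to 6.24 at 0 h alone and followed the brightest at r = 0.70, or 0.82 after group means were subtracted. It was low in 0 h follicles 1 and 3, at -0.33 and -0.40, the same follicles in which the brightest probe set was lowest, at 6.11 and 5.38. The other 3 followed the brightest at r = 0.03 to 0.43.

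**Figure D3:**
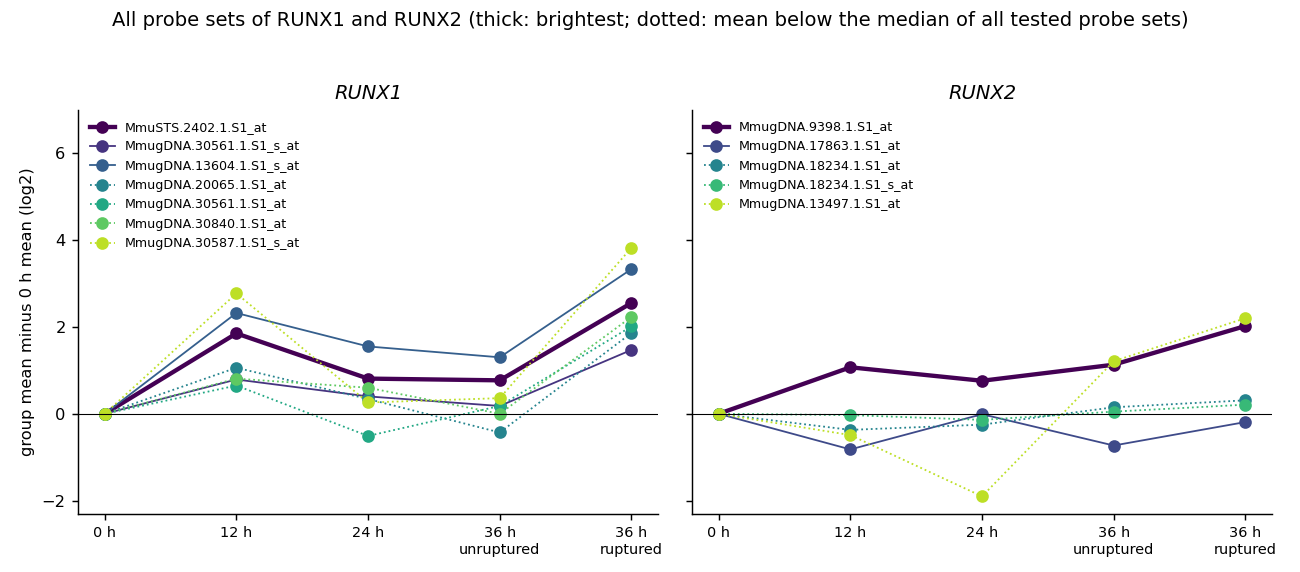
Group mean minus the 0 h mean (log2, y axis) for each of the 7 RUNX1 (left) and 5 RUNX2 (right) probe sets over the 5 groups (x axis), with 1 line per probe set. The RUNX1 lines lie above 0 at 12 h and in ruptured follicles, while the RUNX2 lines part, the brightest at 1.07 and the others at -0.82 to -0.03 at 12 h.

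Over all 5 groups, the F test called 5 of the 6 genes by their brightest probe set (29.0% of named genes) and 12 of the 20 probe sets (20.1% of all probe sets), CEBPA's brightest having an adjusted p of 0.0617. In the order of levels CEBPB, CEBPG, RUNX1 and RUNX2 were highest in ruptured follicles and CEBPA and CEBPD at 12 h. The step between neighbours in that order passed once for CEBPB and CEBPG, between 12 h and unruptured follicles, and once for RUNX1, between 12 h and 24 h. For CEBPA, CEBPD and RUNX2 no step between neighbours passed. CEBPD at 24 h nevertheless did not overlap its neighbour in that order, 0 h (1.12 ± 0.31, adjusted p = 0.0502). Against 12 h, unruptured follicles were lower for CEBPB, CEBPG and RUNX1 (background 7.27% of named genes lower), and no member was called by limma between ruptured follicles and 12 h (background 2.05%), where 2 of the 20 probe sets had an unadjusted p under 0.05. Against 0 h, CEBPB, by its brightest probe set only, and CEBPD were higher in unruptured follicles (background 3.35%). In ruptured follicles 5 genes were higher than at 0 h (background 9.43%) by 11 probe sets (background 7.01%), the sixth being CEBPA.

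A rise to 12 h, a fall to 24 h and a higher level in ruptured than in unruptured follicles were all called for 3 of the 6 genes, CEBPB, CEBPG and RUNX1, and for 5 of their probe sets. Of the 14132 named genes 278 met the same 3 conditions (1.97%), and of all probe sets 620 (1.17%). The 3 conditions were not planned and follow the members' own calls, so these shares are a description and not a test. The rise to 12 h and the fall to 24 h also share the 12 h arrays.

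**Figure D4:**
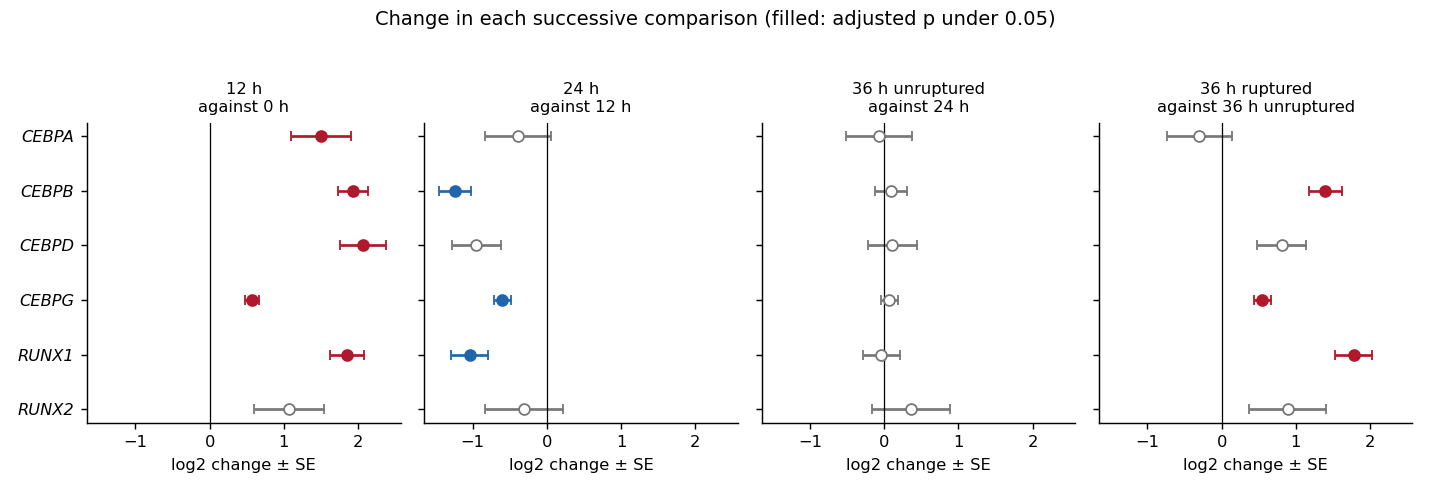
Log2 change ± SE (x axis) of each gene's brightest probe set in the 4 successive comparisons, with filled points where the adjusted p was under 0.05. CEBPB, CEBPG and RUNX1 are filled in the first, second and last comparisons, and no point is filled between 24 h and unruptured 36 h follicles.

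Whether the paired genes changed unequally was tested on the difference of their log2 values per follicle, with a two-sided exact permutation test over follicles, in 8 comparisons (4 steps for each pair) adjusted together. From unruptured to ruptured follicles the change of CEBPA minus that of CEBPB was -1.71 (exact p = 0.0286, the smallest that 4 against 4 follicles allow, adjusted p = 0.229). From 12 h to 24 h the change of RUNX1 minus that of RUNX2 was -0.73 (exact p = 0.0571, adjusted p = 0.229). The other 6 exact p-values were 0.2 to 0.8. None passed after adjustment, which 4 against 4 follicles could reach only if several tests gave the smallest p.

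The genes most like each member were the 5 of 9086 brighter named genes with the highest r over the 22 arrays, which share groups and scaling. For CEBPB they were OSMR, the oncostatin M receptor subunit (0.958), TNFAIP6, which modifies hyaluronan in the cumulus matrix (0.949), the enolase ENO2 (0.939), the small Maf protein MAFF (0.937) and the RNA-binding RBMS1 (0.935). RUNX1 shared 3 of these, OSMR (0.931), MAFF (0.926) and ENO2 (0.923), followed by STEAP1 (0.920) and PLEKHO1 (0.913). CEBPD stood nearest to NFKBIZ, a nuclear IκB protein (0.911), RGS2, which dampens G protein signals (0.907), RBMS1 (0.903), PLEKHO1 (0.894) and TEAD4 (0.892). CEBPG stood nearest to the kinesin KIFC3 (0.909), COPS8 of the COP9 signalosome (0.907), S100A16 (0.900), SELENOS (0.880) and MFSD13A (0.878). For CEBPA they were IRF5, an interferon regulatory factor of myeloid cells (0.843), galectin 3, LGALS3 (0.836), and the interleukin 10 receptor IL10RA, AP1S2 and ADA2 (0.822 each). For RUNX2 they were SPRY1, an inhibitor of receptor kinase signals (0.843), QPCT (0.817), MYL12A (0.811), MDM2 (0.811) and UGP2 (0.807).

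Mean levels show how these patterns ran. OSMR went from 9.60 at 0 h to 11.97 at 12 h, 10.80 at 24 h, 10.38 before rupture and 12.48 after it. KIFC3, beside CEBPG, went from 6.29 to 7.30, 6.24, 6.22 and 7.38. IRF5, beside CEBPA, went from 5.49 to 6.16, 5.98, 5.96 and 5.63. Among the members CEBPB and RUNX1 were most alike (r = 0.94), then CEBPB and CEBPD (0.89), and CEBPA had r of 0.37 to 0.49 with the other 5. That order did not hold after group means were subtracted. CEBPB then had r of 0.51 with RUNX1, 0.54 with CEBPD, 0.63 with RUNX2 (0.74 before) and -0.20 with CEBPG (0.81 before).

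Other leucine zipper factors that can pair with C/EBP proteins or act beside them were measured for 8 of 10 names. At 12 h 3 were higher than at 0 h and none lower (median 0.33, beside -0.00 over all named genes, of which 6.50% were called higher and 7.80% lower). They were NFIL3, a repressor of the PAR family's sites (1.50 ± 0.23, adjusted p = 0.000379), DDIT3, a stress-induced C/EBP partner (0.63 ± 0.17), and ATF4 (0.33 ± 0.10). NFIL3 went from 7.58 ± 0.28 at 0 h to 9.08 ± 0.37 at 12 h and 10.14 ± 0.55 in ruptured follicles, and was 1.50 ± 0.25 higher in ruptured than in unruptured ones (adjusted p = 0.000751). From 12 h to 24 h TEF rose by 0.97 ± 0.17 and CEBPZ fell by 0.80 ± 0.23, beside backgrounds of 5.84% higher and 5.02% lower. In ruptured against unruptured follicles 2 of the 8 were higher, NFIL3 and a factor not named here, and 1 was lower, TEF (-0.82 ± 0.17). The backgrounds there were 6.47% of named genes higher and 7.67% lower.

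Of the RUNX family and its partners, 4 of 5 were measured. None was called by limma between 0 h and 12 h, or had an unadjusted p under 0.05 (0 of 4). CBFB, the subunit that RUNX proteins need for firm DNA binding, read 9.08 ± 0.10 at 0 h and 9.22 ± 0.13 at 12 h. It fell by 0.44 ± 0.12 to 24 h (adjusted p = 0.0252) and was 0.42 ± 0.12 higher in ruptured than in unruptured follicles (adjusted p = 0.0265). CBFA2T3, a corepressor of the same group as RUNX1T1, fell by 1.43 ± 0.35 from 12 h to 24 h. RUNX1T1 was lower in ruptured than in unruptured follicles, with a change of -1.10 ± 0.21 (adjusted p = 0.00227). RUNX3 passed in none of the 3 steps. These are 2 of 4 genes lower at 24 h (background 5.02%), and 1 higher and 1 lower in ruptured follicles (backgrounds 6.47% and 7.67%).

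Cofactors of C/EBP and RUNX proteins and the factors of their turnover were measured for 16 of 20 names, with 2 higher and 1 lower at 12 h, 2 lower at 24 h, and 4 higher and 2 lower in ruptured follicles. The shares of all named genes were 6.50% higher and 7.80% lower at 12 h, 5.02% lower at 24 h, and 6.47% higher and 7.67% lower in ruptured follicles. The 1 gene of 16 lower at 12 h is near that share. TRIB1, an adaptor through which C/EBP proteins are marked for degradation, went from 6.43 ± 0.41 at 0 h to 8.17 ± 0.57 at 12 h, 6.52 ± 0.21 at 24 h, 6.97 ± 0.41 before rupture and 9.30 ± 0.75 after it. All 3 steps of TRIB1 passed, with changes of 1.74 ± 0.31, -1.65 ± 0.34 and 2.33 ± 0.34 (adjusted p = 0.00155, 0.00644 and 0.000305). The related TRIB2 was lower at 12 h, with a change of -1.01 ± 0.24. TLE3, a Groucho corepressor that RUNX proteins recruit, passed in the same 3 steps as TRIB1, with changes of 0.70 ± 0.17, -0.86 ± 0.19 and 0.87 ± 0.19. The acetyltransferase KAT6A, a RUNX1 coactivator, was 1.23 ± 0.16 higher in ruptured than in unruptured follicles (adjusted p = 9.9e-05).

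Signals known to act upstream of these factors were measured for 15 of 18 names, with 5 higher and 1 lower at 12 h, 2 higher and 4 lower at 24 h, and 6 higher and 1 lower in ruptured follicles. Among all named genes 6.50% were higher and 7.80% lower at 12 h, 5.84% and 5.02% at 24 h, and 6.47% and 7.67% in ruptured follicles, so that the 1 of 15 called lower at 12 h and in ruptured follicles is near the background. The EGF-like ligand AREG (7.44 ± 0.87), the cytokine LIF (2.83 ± 0.50) and SOCS3, a feedback inhibitor of cytokine signals (2.49 ± 0.70), had the largest rises to 12 h. The same 3 led in ruptured against unruptured follicles, LIF by 4.71 ± 0.55, AREG by 4.20 ± 0.95 and SOCS3 by 3.36 ± 0.77. From 12 h to 24 h the largest falls were those of LIF (-2.92 ± 0.55), IL6ST (-1.27 ± 0.35) and CREM (-1.12 ± 0.33). IL6ST, the receptor subunit shared by LIF and oncostatin M, also rose by 1.87 ± 0.32 to 12 h, and STAT3, which carries its signal, by 1.64 ± 0.20 (adjusted p = 0.00106 and 7.6e-05). The 12 h values of IL6ST and STAT3 lie outside the naming rule and were chosen after they were seen.

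Genes reported to depend on CEBPA and CEBPB in rodent granulosa cells were measured for 6 of 11, with 2 higher and 1 lower at 12 h, 2 lower at 24 h and 1 higher in ruptured follicles. The backgrounds for these counts were 6.50% higher and 7.80% lower, 5.02% lower, and 6.47% higher. PTX3, a protein of the cumulus matrix, rose by 4.73 ± 0.40 to 12 h, fell by 1.89 ± 0.43 to 24 h and was 3.63 ± 0.43 higher in ruptured than in unruptured follicles, in the same steps as CEBPB. STAR, which brings cholesterol into mitochondria for steroid synthesis, rose by 0.81 ± 0.14 to 12 h. It read 13.22 ± 0.28 at 12 h, 13.18 ± 0.07 at 24 h, 13.05 ± 0.16 before rupture and 13.35 ± 0.03 after it, with no later step called. APOA1 was lower at 12 h (-1.19 ± 0.23), and the aromatase CYP19A1 fell by 3.16 ± 0.66 from 12 h to 24 h.

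Genes reported to depend on RUNX1, RUNX2 or CBFB there were measured for 7 of 13. The 1 call in the 3 steps was ABCB9, lower at 12 h (-1.26 ± 0.29, adjusted p = 0.00881, background 7.80% lower). HAPLN1, a hyaluronan link protein of the cumulus matrix, passed in none of the 3 steps. Neither list is a test of dependence in these follicles, since no factor was removed.

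Targets known from other tissues were also counted. Of 11 acute phase genes with C/EBP sites in liver, 1 was higher at 12 h and 1 in ruptured follicles (backgrounds 6.50% and 6.47% of named genes), in both cases the protease inhibitor SERPINA3, from 5.38 ± 0.46 at 0 h to 11.86 ± 0.45 at 12 h and from 8.60 ± 0.70 in unruptured to 12.01 ± 0.46 in ruptured follicles. It was also the 1 named gene called between 24 h and unruptured follicles, with a change of -2.67 ± 0.36 (adjusted p = 0.0255). Of 9 bone matrix genes with RUNX2 sites, SPP1 (osteopontin, also made by macrophages) was 2.35 ± 0.58 higher at 12 h, with overlapping groups (background 6.50%), and no other was called in the 3 steps. Of 6 adipocyte genes with CEBPA sites 2 were lower at 12 h, LEP (-0.61 ± 0.13) and PPARG (-0.96 ± 0.27), beside a background of 7.80% lower. LEP rose by 0.85 ± 0.14 to 24 h (background 5.84% higher), and LEP and LPL were lower in ruptured than in unruptured follicles, with changes of -0.72 ± 0.14 and -0.74 ± 0.18 (background 7.67% lower).

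**Figure D5:**
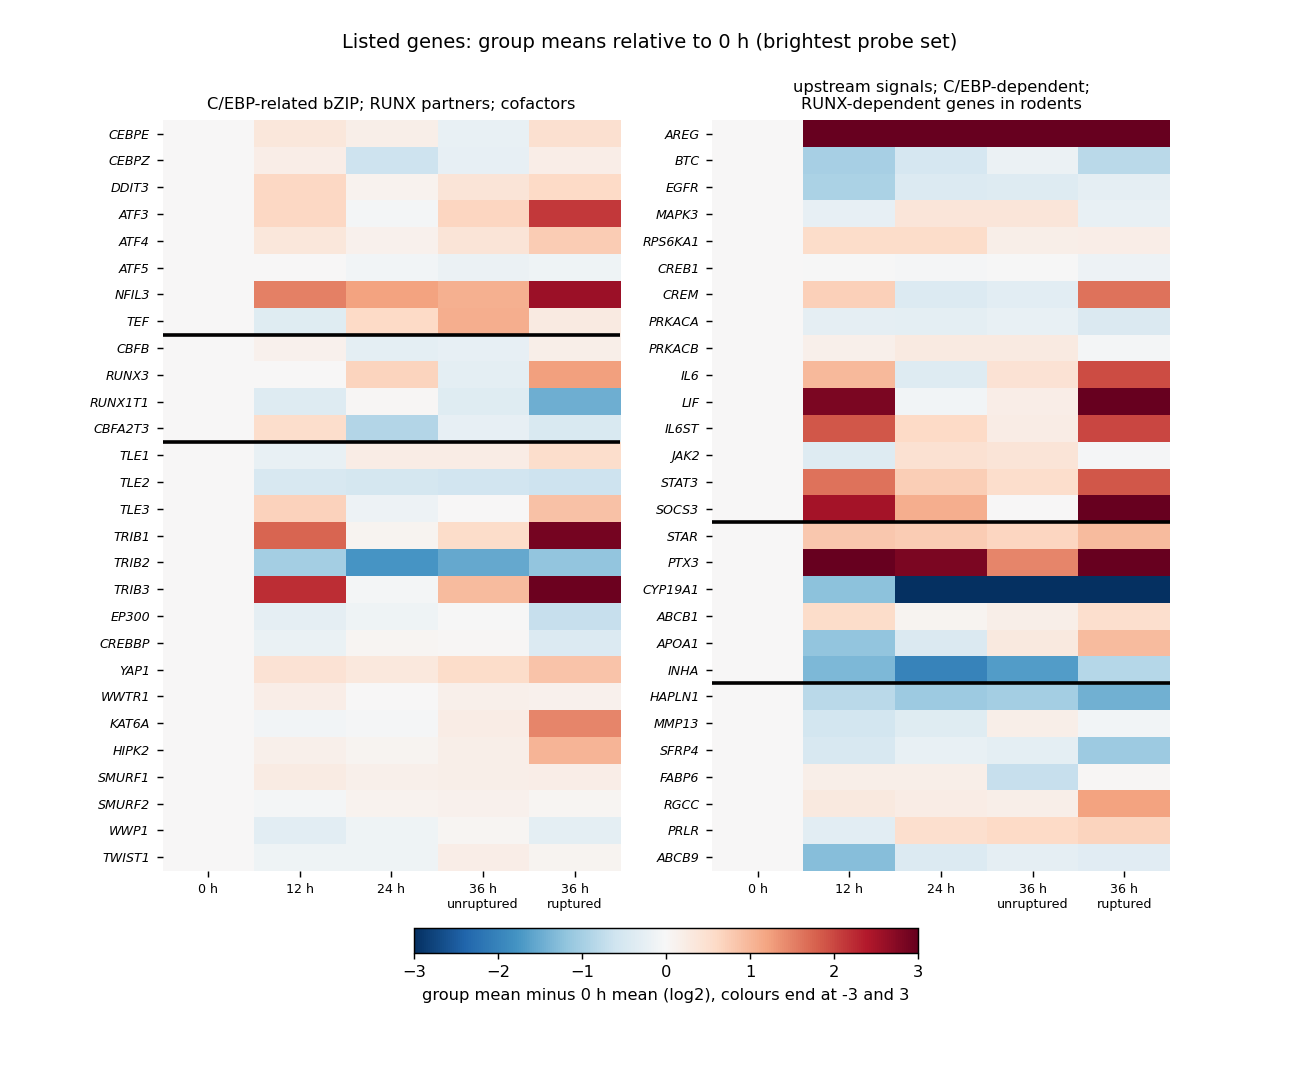
Group mean minus the 0 h mean (log2, colour, ending at -3 and 3) of measured listed genes in rows, over the 5 groups in columns. Black lines separate the lists. They hold C/EBP-related leucine zipper factors, the RUNX family and partners, cofactors, upstream signals, and C/EBP-dependent and RUNX-dependent genes of rodents. TRIB1, LIF, IL6ST and STAT3 are red at 12 h and in ruptured follicles and paler between, while most RUNX-dependent genes of rodents stay pale.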

How the data were processed

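The authors deposited intensities, 1 per probe set and array, made with RMA per the submitters' processing notes, with no version stated there. RMA corrects background, normalizes the arrays to each other and then combines a set's probes into 1 value. The values ran from 0.0361 to 15137, a linear scale, so log2 was taken here. No detection calls or scan dates were given, so nothing can be said to be below background, sizes of change at dim probe sets are uncertain, and batches could not be tested. Of 52865 probe sets 99 controls were left out. Symbols came from the platform's annotation: 24956 probe sets had 1, 361 several and 27449 none.

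Groups and follicle numbers came from the sample titles. limma 3.58.1 in R 4.3.3 (lmFit, eBayes) fitted group means over all 22 arrays, two-sided, and was tested on simulated data. Alternatives were another log offset (16), dim probe sets left out, only 2 groups fitted, a trended robust prior, array weights, quantile normalization, the 3′ index as covariate, a block by number, other probe sets and each array left out.

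The members, the 9 gene lists and the 10 marker lists were chosen with earlier results of these data known. Named from each list were its called members, up to 3 with the largest change per comparison, plus the 5 most alike genes per member. A leucine zipper factor called higher in ruptured follicles was left unnamed. No sequences were used.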

Additional observations from a re-analysis of the deposited data

Results flagged for a closer look

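Single follicles stood apart from the rest of their group in 6 of 100 groups of 4 to 6 follicles (20 probe sets in 5 groups), judged by the gap to the nearest follicle relative to the group's range. Chance gives about 1 in 20 such cases. For CEBPD, unruptured replicate 1 was lowest of 4 at 9.75, with the nearest at 9.91, in a group whose SD was 0.08. The other 5 cases were in dimmer probe sets of RUNX1 and RUNX2. For RUNX1, 24 h replicate 3 read 4.09 in probe set MmugDNA.13604.1.S1_s_at, 0 h replicate 2 read 2.02 in MmugDNA.20065.1.S1_at, 0 h replicate 4 read 5.15 in MmugDNA.30561.1.S1_at and 24 h replicate 2 read 3.23 in MmugDNA.30587.1.S1_s_at. For RUNX2, unruptured replicate 1 read 2.87 in MmugDNA.17863.1.S1_at. None of the 6 brightest probe sets other than that of CEBPD was among them.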

How the results depend on the processing

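In 49 of 63 recounts under other settings the number of called member probe sets stayed within 1.5 times the main one. With only 2 groups fitted it was 7 for 12 h against 0 h (12 in the main fit), 0 for 24 h against 12 h (5), 4 for ruptured against unruptured follicles (9) and 1 for unruptured follicles against 0 h (2). In that fit the share of all probe sets called in either direction fell too. In the same order it went from 9.33% to 5.19%, 6.88% to 0.358%, 9.82% to 2.5% and 4.72% to 2.59%. With the 3′ index as covariate 3 passed from 12 h to 24 h, where 4.16% of all probe sets did. For 24 h against 0 h (1) the member count was 4 with 16 added before log2, 5 without dim probe sets, 4 with a trended robust prior, 3 with array weights and 2 after quantile normalization. The shares of all tested probe sets there were 4.48%, 11.6%, 4.85%, 4.29% and 3.41%, beside 3.36% in the main fit. For unruptured follicles against 0 h the member count was 5 without dim probe sets and 4 with the trended prior. The shares of all tested probe sets were 15% and 6.31%, beside 4.72% in the main fit. The fit of 2 groups rests on fewer arrays and the fit without dim probe sets on fewer tests. For the other settings the cause was not tested. Among single member changes, 49 lost and 20 gained a call in settings other than left-out arrays, many of them in dimmer probe sets. With no detection calls, the lowest level that the arrays could measure is unknown.

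No pairing by follicle number was seen: 26 pairs of equal number had correlations of deviations from group means of -0.061 to 0.058. For 166 pairs of different number they were -0.046 to 0.093. The labels do not say what the numbers mark, and these values cannot show whether follicles shared a female. Ruptured follicles share numbers with 0 h alone. With the number as a replicate block 0 member probe sets passed for ruptured against unruptured follicles and 5 for ruptured against 0 h. Of all probe sets 0.0644% and 1.96% passed there, beside 9.82% and 15.8% in the main fit. Ruptured and unruptured follicles share no number, so a count of 0 in that comparison says little about the members.

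With each array left out in turn the counts were 9 to 13 for the F test, 7 to 12 for 12 h against 0 h, 2 to 6 for 24 h against 12 h, 0 to 0 for unruptured follicles against 24 h, 6 to 11 for ruptured against unruptured, 0 to 2 for 24 h against 0 h, 0 to 3 for unruptured against 0 h and 10 to 12 for ruptured against 0 h. The unequal change of CEBPA and CEBPB ranged from -0.86 to 0.13 for 12 h against 0 h and from -0.49 to 0.11 for unruptured follicles against 24 h.

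No called member change turned its sign, except that RUNX2 in ruptured follicles against 0 h gave -0.20 in probe set MmugDNA.17863.1.S1_at. Changes that were not called turned in several settings. For RUNX2 at 12 h against 0 h, probe sets MmugDNA.17863.1.S1_at, MmugDNA.18234.1.S1_at, MmugDNA.18234.1.S1_s_at and MmugDNA.13497.1.S1_at gave -0.82, -0.37, -0.03 and -0.49, and the mean of the gene's probe sets -0.13. For RUNX2 at 24 h against 0 h, the same 4 gave -0.01, -0.25, -0.14 and -1.90, and the mean -0.31. For RUNX2, MmugDNA.17863.1.S1_at also gave 0.81 and MmugDNA.18234.1.S1_at 0.12 for 24 h against 12 h, and the former -0.72 for unruptured follicles against 24 h, -0.73 for unruptured follicles against 0 h and -0.19 for ruptured follicles against 24 h. For RUNX1, MmugDNA.30561.1.S1_at gave 0.69 for unruptured follicles against 24 h and -0.51 for 24 h against 0 h, MmugDNA.30587.1.S1_s_at gave 0.11 for the former, and MmugDNA.20065.1.S1_at -0.43 for unruptured follicles against 0 h. For CEBPG, MmuSTS.3402.1.S1_at gave -0.10 for unruptured follicles against 24 h, 0.09 for 24 h against 0 h and -0.01 for unruptured follicles against 0 h, with -0.02 and 0.03 for the first and second by the mean of the probe sets. For CEBPA, MmuSTS.3401.1.S1_at gave 0.04 for 24 h against 12 h, and array weights 0.01 for unruptured follicles against 24 h. The replicate block gave, for ruptured follicles, -0.07 for CEBPB against 12 h, and for RUNX2 -0.13 against 12 h and -0.19 against unruptured follicles.

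Arrays left out in turn moved these uncalled changes across 0: CEBPA for 24 h against 12 h (-0.80 to 0.01) and unruptured follicles against 24 h (-0.48 to 0.26), CEBPB (-0.02 to 0.26) and RUNX1 (-0.17 to 0.06) for the latter, CEBPD (-0.36 to 0.31) and CEBPG (-0.04 to 0.10) for ruptured follicles against 12 h, CEBPG for 24 h (-0.06 to 0.02) and unruptured follicles (-0.01 to 0.07) against 0 h, and RUNX2 for unruptured follicles against 12 h (-0.23 to 0.47).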
